A study of Mus musculus and Sus scrofa with 18 samples.

Results

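The genes described here are 51 protein-coding genes that lie on either side of Htt, the huntingtin gene, on mouse chromosome 5. They came from a given list whose rule names nearness to Htt, drawn up with earlier results of these data known, and Htt itself was not on the list. All 51 were found among the 55357 mouse genes in the count table, and 49 had enough counts to be tested. Gene order was read from a reference annotation, in which the stretch reaches on the Grk4 side to Slbp, 29 tested genes from Htt, and on the Msantd1 side to Wdr1, 46 tested genes from Htt. The question was whether genes flanking the knock-in allele differ by genotype in the striatum.

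RNA came from the striatum of 9 mice, 3 in each of 3 groups, and a further 9 libraries of the series came from pigs and were not analysed here. WT mice carried no knock-in allele and were injected with AAV9-Ctrl gRNA, without CasRx, an RNA-cutting Cas13 enzyme. The HD groups were HD 140Q-KI mice, which were bred as heterozygotes from heterozygous males and WT C57BL/6 J females and express full-length mutant huntingtin from a mouse Htt gene with human HTT exon 1 and an expanded CAG repeat. Untreated HD mice received AAV9-CasRx with AAV9-Ctrl gRNA, and treated HD mice received AAV9-CasRx with the vectors AAV9-HTT gRNA1 + 2 and gRNA3 + 4, whose 4 guides are aimed at human HTT exon 1. Injections were made into both striata at 6 months of age and tissue was taken 1.5 months later. CasRx was expressed from the CAG promoter, and every HD mouse and no WT mouse received it, so that the knock-in allele and CasRx cannot be told apart in a comparison with WT.

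Genes next to each other on a chromosome are inherited together, and a gene altered in embryonic stem cells takes a stretch of the donor strain's chromosome with it when the mice are bred. The strain of origin of the DNA around this allele is not given in the sources used here, and its part in the values was not tested. The neighbours have no single function, and include receptors, cytoskeletal proteins, endosomal proteins, enzymes, chromatin proteins and cilium proteins.

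Promoters are shown for the members that differed from WT in every comparison made with WT, which were Zfyve28, Adra2c and Sorcs2, as far as the RefSeq promoter table holds them. Zfyve28 is on the minus strand at chr5:34288275-34288574 and Adra2c on the plus strand at chr5:35278316-35278615 of GRCm38.p6, each from 250 bases before to 50 bases after the annotated start, written 5′ to 3′. Capitals mark the GC box GGGCGG or its reverse complement CCGCCC.
Zfyve28: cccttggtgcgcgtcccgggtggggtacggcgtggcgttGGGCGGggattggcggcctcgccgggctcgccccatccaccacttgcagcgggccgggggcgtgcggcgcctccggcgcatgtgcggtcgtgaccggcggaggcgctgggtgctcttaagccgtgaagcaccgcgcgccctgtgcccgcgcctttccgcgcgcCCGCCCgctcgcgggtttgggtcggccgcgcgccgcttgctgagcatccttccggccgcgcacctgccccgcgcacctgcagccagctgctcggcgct
Adra2c: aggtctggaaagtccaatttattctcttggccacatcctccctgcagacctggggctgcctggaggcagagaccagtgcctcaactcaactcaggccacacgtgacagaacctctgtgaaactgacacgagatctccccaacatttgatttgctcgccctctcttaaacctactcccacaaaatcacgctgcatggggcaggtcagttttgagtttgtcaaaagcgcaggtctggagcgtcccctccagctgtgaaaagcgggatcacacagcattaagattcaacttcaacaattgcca
The Zfyve28 promoter was 77.0% G or C with 48 CpG dinucleotides and 2 GC boxes, whereas the Adra2c promoter was 51.3% G or C with 7 CpG dinucleotides and no GC box. Among 32851 mouse promoters of this length the median was 52.7% G or C. A GC box, searched on both strands, was found in 35.7% of them and in 43 of the 57 promoters (75.4%) listed for 47 of the members. The cyclic AMP response element TGACGTCA was in 1.79% of all promoters and the TATA box letters TATAAA in 13.6%, both searched on both strands, and neither was in any of the 57 promoters of members.

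Htt itself was lower in HD mice. It stood at 189, 191 and 182 CPM (counts scaled to the size of each library, with TMM factors) in WT replicates 1 to 3, 145, 140.4 and 149.6 in the untreated mice and 139.7, 130.5 and 136 in the treated mice. The 6 HD mice were all below the 3 WT mice, with a log2 fold change of -0.42 ± 0.05 (SE; adjusted p = 0.00137; exact permutation p = 0.0238, two-sided, which is the lower limit for 6 mice against 3). Treated mice were also all below untreated mice, with a log2 difference of -0.10 ± 0.06 (adjusted p = 0.942; exact permutation p = 0.1, the lower limit for 3 against 3). The counts do not separate the knock-in from the mouse allele.

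Facts about the libraries bear on every comparison with WT. The libraries held 27184356 to 32102121 counts. Counts on 4 Y-linked genes summed to between 3435 and 5005 in the 3 WT mice and in untreated replicate 1. They summed to 0 in the other 5 mice. Sex and genotype were thus nearly aligned, and sex and treatment with HTT gRNAs cannot be fully told apart. The paper reports male and female mice in an equal ratio, without giving the sex of those sequenced. The 10 markers of striatal projection neurons summed to between 6789 and 8786 CPM in WT, 2066 and 2448 in untreated mice, and 3261 and 3295 in treated mice, and all 10 were lower in both HD groups together. Microglia and macrophage markers summed to between 250 and 291 CPM in WT, 329 and 917 in untreated mice, and 400 and 576 in treated mice, with 1 of 7 higher in both HD groups together. T cell markers were close to 0 in WT, at 0.0734 to 0.465 CPM, against 2.81 to 54.7 in untreated mice and 3.34 to 13.1 in treated mice, with 4 of 5 higher in both HD groups together and 5 of 5 in untreated mice. Endothelial markers summed to between 94.9 and 117 CPM in WT, 130.5 and 168 in untreated mice, and 143 and 154 in treated mice, with 2 of 4 higher. Markers of choroid plexus ranged from 64.9 to 3731 CPM among the WT mice alone, and those of cortical excitatory neurons from 195 to 850, from 962 to 1144 and from 658 to 722 in the WT, untreated and treated mice. In bulk tissue, fewer cells of a type and less RNA per cell cannot be told apart, and the part of cell makeup in the members' values was not tested.

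With both HD groups pooled against WT, 11 of 49 members (22.4%) differed at an adjusted p under 0.05, against 11.9% of all 19463 tested genes. All members are protein-coding, whereas the tested genes also include other gene types. The share called among all protein-coding genes was not counted. Grk4, Dok7, Acox3, Slc2a9 and Wdr1 rose, 5 of 49 beside 4.52% of all genes, and Add1, Zfyve28, Adra2c, Sorcs2, Crmp1 and Nsg1 fell, 6 of 49 beside 7.34%. The median log2 fold change of the members was -0.03, beside 0.01 for all genes, and 39 of the 49 lay within 0.5 of 0 on the log2 scale. In 15 of the 49 members (30.6%) the 6 HD mice did not overlap the 3 WT mice, against 18.7% of all genes. Besides the 11 called members these were Rnf4 and Msantd1, lower in HD mice, and Sh3bp2 and Mfsd10, higher in HD mice. Leaving out 1 mouse at a time gave 5 to 12 calls, and over all genes 833 to 2549 in place of 2309. There were 5 without WT replicate 2, treated replicate 2 or treated replicate 3, where 833, 1085 and 1218 genes in all were called. Without untreated replicate 2 or treated replicate 1 there were 7, beside 1572 and 1177 genes in all. With the Y-linked share in the fit 2 calls were left, those of Zfyve28 and Sorcs2, beside 195 genes in all.

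**Figure D1:**
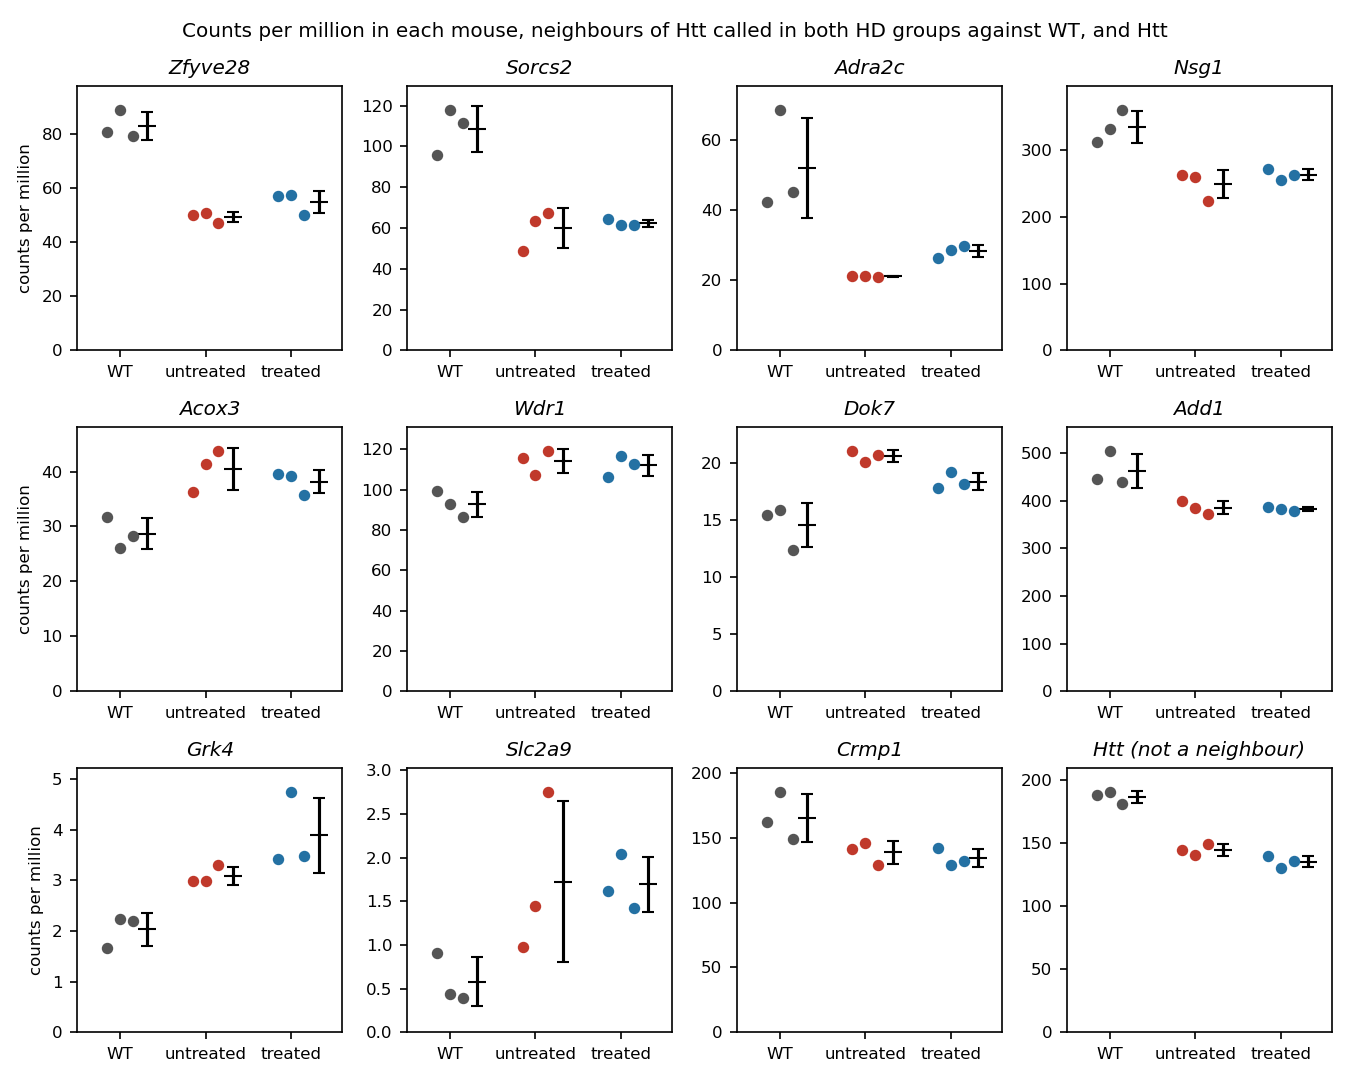
CPM (y axis, from 0) in each mouse of the WT, untreated and treated groups for the 11 members called in both HD groups against WT, in order of P, and for Htt. Points are mice, and the bar beside them is the mean and SD of 3 mice. In each of these panels the 6 HD mice lie on the same side of all 3 WT mice.

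Of 9 tested members of the trafficking, endosome and secretory group, 3 fell, none rose and 6 did not pass the test in both HD groups together, where 7.34% of all genes fell. In untreated mice alone 3 fell (6.1% of all genes) and in treated mice 2 (2.78%). Zfyve28 encodes an endosomal FYVE-domain protein that limits growth factor receptor signalling. It stood at 81.0, 89.0 and 79.5 CPM in the WT mice, 50.1, 51 and 47.3 in the untreated mice and 57.2, 57.7 and 50.2 in the treated mice. The lowest WT mouse was well above the highest HD mouse, and the untreated and treated mice overlapped. The log2 fold change was -0.67 ± 0.07 in both HD groups (SE; adjusted p = 0.000494), -0.75 ± 0.08 in untreated (adjusted p = 0.000977) and -0.60 ± 0.08 in treated mice (adjusted p = 0.00487).

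Sorcs2, a VPS10-domain sorting receptor that acts with the neurotrophin receptors, was at 95.8, 118 and 111 CPM in WT. Its level was 48.7, 63.3 and 67.5 in untreated mice and 64.4, 61.3 and 61.5 in treated mice. Untreated replicate 1 was the lowest of all, and every HD mouse was below every WT mouse. Sorcs2 fell by 0.83 on the log2 scale in both HD groups (SE 0.10; adjusted p = 0.00149), by 0.86 in untreated mice (adjusted p = 0.00372) and by 0.80 in treated mice (adjusted p = 0.00948). The call in treated mice was lost without any 1 of the treated replicates, with an adjusted p of up to 0.0658.

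Nsg1 encodes a neuronal endosomal protein that takes part in receptor recycling. Its levels were 311, 332 and 359.8 CPM in WT, 262, 259.5 and 224 in untreated mice and 272, 255 and 263 in treated mice, again with no overlap between WT and HD mice. The log2 fold change was -0.39 ± 0.07 in both HD groups (adjusted p = 0.0114) and -0.43 ± 0.08 in untreated mice (adjusted p = 0.0160), and in treated mice it was -0.34 ± 0.08 (adjusted p = 0.0562). Nsg1 and Stx18, a syntaxin of the endoplasmic reticulum, lie on opposite strands with overlapping 3′ ends, and whether the counting used strand is not stated, so their reads may not be told apart. Nsg1 held 74661 counts over the 9 libraries and Stx18 5687, and Stx18 had a log2 fold change of -0.04 ± 0.10 in both HD groups. The other tested members of the group were Tmem129, Lrpap1, Sh3tc1, Tbc1d14 and Tmem128, with log2 fold changes from -0.13 to 0.46 and no call. Lrpap1, a chaperone of the low-density lipoprotein receptor family, was lower in all untreated than in all WT mice (142, 136 and 144 against 169, 166 and 148 CPM), with a log2 fold change of -0.19 ± 0.07 (adjusted p = 0.0952).

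Among receptors and signalling proteins, 2 of 10 tested members rose and 1 fell in both HD groups together, where 4.52% of all genes rose and 7.34% fell, and 1 rose and 1 fell in the untreated and in the treated mice alone. The alpha 2C adrenergic receptor gene Adra2c, whose protein couples to inhibitory G proteins, showed the largest fall of any called member. Adra2c was at 42.5, 68.6 and 45.1 CPM in WT, 21.3, 21.2 and 20.9 in untreated mice and 26.5, 28.6 and 29.8 in treated mice. The 3 groups did not overlap, with untreated lowest and treated between untreated and WT. WT replicate 2 stood apart from the other WT mice. The log2 fold change was -1.09 ± 0.14 in both HD groups (adjusted p = 0.00166), -1.30 ± 0.17 in untreated mice (adjusted p = 0.00214) and -0.88 ± 0.16 in treated mice (adjusted p = 0.0220). The last of these calls was lost without any 1 of the treated replicates, with an adjusted p of up to 0.109.

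Grk4, a G protein-coupled receptor kinase and the nearest neighbour of Htt on its side, was counted at 1.66, 2.24 and 2.19 CPM in WT, 2.98, 2.99 and 3.30 in untreated mice and 3.43, 4.74 and 3.49 in treated mice. The WT mice were lowest, the treated mice highest and no group overlapped another, although the gene held only 44 to 144 counts in a library. Its log2 fold change was 0.77 ± 0.18 in both HD groups (adjusted p = 0.0294) and 0.93 ± 0.21 in treated mice (adjusted p = 0.0406), and 0.60 ± 0.21 in untreated mice (adjusted p = 0.0914). The call in both HD groups was lost without any 1 of the 3 WT mice, the 3 treated mice or untreated replicate 2, with adjusted p-values of up to 0.0710, and in treated mice it was lost on leaving out any 1 mouse other than untreated replicate 3, with adjusted p-values of up to 0.162.

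Dok7, an activator of the muscle receptor kinase MuSK, rose. The values were 15.5, 15.9 and 12.4 CPM in WT, 21.1, 20.1 and 20.7 in untreated mice and 17.8, 19.2 and 18.2 in treated mice, so that the untreated mice were highest and the treated mice lay between them and WT. It changed by 0.42 ± 0.10 on the log2 scale in both HD groups (adjusted p = 0.0274) and by 0.50 ± 0.11 in untreated mice (adjusted p = 0.0247). The value was 0.34 ± 0.11 in treated mice (adjusted p = 0.124). Leaving out WT replicate 3 or any treated mouse ended the first call (adjusted p up to 0.0631), and leaving out any untreated mouse ended the second (up to 0.0623).

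The remaining receptor and signalling members, Fgfr3, Tnip2, Sh3bp2, Rgs12, Ppp2r2c, Stk32b and Drd5, did not pass the test in any comparison. Fgfr3, a fibroblast growth factor receptor, Drd5, a dopamine receptor, Tnip2, an inhibitor of NF-kappa-B signalling, and Ppp2r2c, a regulatory subunit of protein phosphatase 2A, lay with the kinase Stk32b between -0.12 and 0.14 on the log2 scale in both HD groups. Rgs12, which speeds up GTP hydrolysis by G protein alpha subunits and is the neighbour after Msantd1, was at 68.9, 61.0 and 43.9 CPM in WT, 51.4, 48.9 and 49.6 in untreated mice and 58.5, 63.5 and 54.3 in treated mice, with a log2 fold change of -0.10 ± 0.12 in both HD groups (adjusted p = 0.645). Its WT mice spanned the whole range of the HD mice. Sh3bp2, an adaptor protein of immune and bone cells, was at 4.68, 5.43 and 4.29 CPM in WT and 6.21, 6.45 and 13.7 in untreated mice, of which replicate 3 was highest, and at 5.49, 7.02 and 5.98 in treated mice. All HD mice were above all WT mice, and the log2 fold change was 0.62 ± 0.26 (adjusted p = 0.150). In treated mice it was 0.36 ± 0.29, and -0.28 with the Y-linked share in the fit, neither of them called. Untreated replicate 3 also had the highest summed microglia and T cell markers, at 917 and 54.7 CPM, and the part of these cells in the Sh3bp2 value was not tested.

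In the cytoskeleton group of 4 tested members, 2 fell and 1 rose in both HD groups together, beside 7.34% and 4.52% of all genes. In untreated mice alone 1 rose and none fell, and in treated mice alone none was called by edgeR. Add1, or alpha adducin, which joins spectrin to actin, was at 445, 504 and 439 CPM in WT, 399, 384 and 371 in untreated mice and 386, 381 and 378 in treated mice. The 6 HD mice lay close together and below the WT mice, of which replicate 2 was highest. Add1 changed by -0.27 ± 0.06 on the log2 scale in both HD groups (adjusted p = 0.0275). The call was lost without WT replicate 2, untreated replicate 2 or any treated mouse, with adjusted p-values of up to 0.0859.

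Crmp1, a collapsin response mediator protein of growing axons, was at 162, 185 and 149 CPM in WT, 141, 146 and 129 in untreated mice and 142, 129 and 132 in treated mice. The highest HD mouse was just under the lowest WT mouse. The log2 fold change was -0.28 ± 0.08 in both HD groups (adjusted p = 0.0464), and the call was lost on leaving out any 1 mouse other than WT replicate 3, with adjusted p-values of up to 0.166. Without WT replicate 2 its value was -0.18. Crmp1 shares its 3′ end with Evc on the opposite strand. It held 38573 counts in all and Evc 2557, and the log2 fold change of Evc was 0.08 ± 0.13.

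Wdr1, which helps cofilin to take actin filaments apart and lies farthest from Htt on its side, rose. Its values were 99.1, 92.8 and 86.6 CPM in WT, 116, 107 and 119 in untreated mice and 106, 117 and 113 in treated mice, with all HD mice above all WT mice. The change was 0.28 ± 0.06 on the log2 scale in both HD groups (adjusted p = 0.0239) and 0.30 ± 0.07 in untreated mice (adjusted p = 0.0337). The first call was lost without WT replicate 2 or 3 or treated replicate 2 or 3 (adjusted p up to 0.0623). The second was lost without any 1 mouse other than WT replicate 1 and untreated replicate 2 (up to 0.102). Jakmip1, a microtubule-binding protein, was not called, at -0.21 ± 0.10 in both HD groups (adjusted p = 0.171). Its 3′ end lies inside Gm1043 on the same strand, so that reads of both may not be told apart.

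Enzymes and transporters each held 1 rise in both HD groups together, where 4.52% of all genes rose. Acox3, a peroxisomal acyl-CoA oxidase of branched fatty acids, was at 31.7, 26.1 and 28.3 CPM in WT, 36.2, 41.3 and 43.7 in untreated mice and 39.6, 39.1 and 35.7 in treated mice. All HD mice were above all WT mice. Acox3 rose by 0.45 ± 0.09 on the log2 scale in both HD groups (adjusted p = 0.0161) and by 0.49 ± 0.10 in untreated mice (adjusted p = 0.0203), and the value in treated mice was 0.41 ± 0.10 (adjusted p = 0.0628). Without WT replicate 2 the first call was lost (adjusted p = 0.0551), and without WT replicate 2 or untreated replicate 2 or 3 the second was lost (up to 0.0617). Letm1, an ion exchanger of the inner mitochondrial membrane, Grpel1, a cochaperone of mitochondrial protein import, and Nat8l were not called against WT, with log2 fold changes from -0.10 to 0.16 in both HD groups.

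Slc2a9, a urate transporter, was near the lower end of what was counted. It was at 0.907, 0.440 and 0.399 CPM in WT, 0.982, 1.44 and 2.75 in untreated mice and 1.62, 2.04 and 1.42 in treated mice. Untreated replicate 1, at 0.982 CPM, was only just above WT replicate 1, at 0.907. The log2 fold change was 1.56 ± 0.41 in both HD groups (adjusted p = 0.0399). The call was lost without WT replicate 2 or 3, untreated replicate 2 or any treated mouse, with adjusted p-values of up to 0.143, and with the Y-linked share in the fit the log2 fold change was 0.76 (adjusted p = 0.534). Of the other members of this group, Otop1, a proton channel, was not tested, and Wfs1, a protein of the endoplasmic reticulum membrane, was at 99.3, 175 and 171 CPM in WT, 55.6, 75.6 and 133 in untreated mice and 92.1, 80.6 and 99.9 in treated mice, with a log2 fold change of -0.73 ± 0.26 (adjusted p = 0.0942) and an overlap between WT and HD mice.

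The untreated replicate 1 mouse was the HD mouse with counts on Y-linked genes, as in the WT mice. When the Y-linked share of counts was added to the fit, which estimates the effect of sex mainly from the untreated mice, 2 of the 11 calls were kept. These were Zfyve28, at -0.68 on the log2 scale (adjusted p = 0.0396), and Sorcs2, at -1.14 (adjusted p = 0.00884), while Adra2c was at -1.16 (adjusted p = 0.0671). Over all genes the same fit called 195 in place of 2309.

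**Figure D2:**
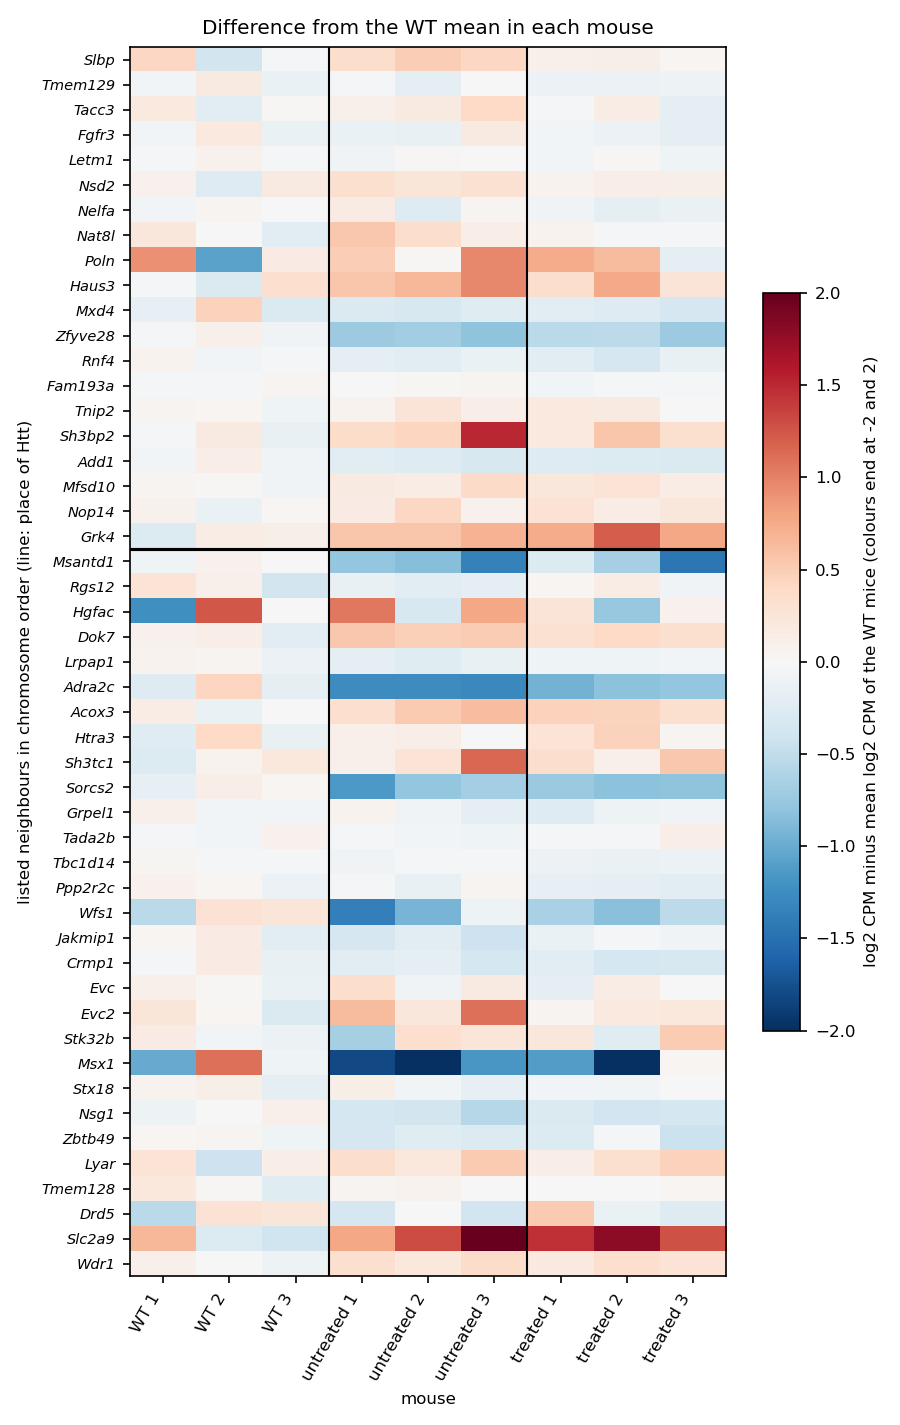
Difference from the mean of the WT mice on the log2 CPM scale (colour, with colours ending at -2 and 2) for the 49 tested members (rows, in chromosome order from Slbp at the top to Wdr1, with a line at the place of Htt) in each of the 9 mice (columns). In every HD mouse 8 members, among them Zfyve28, Adra2c and Sorcs2, are lower than in all WT mice, and 7 are higher. Most other members show little colour, and Hgfac, Poln and Msx1 also vary widely among the WT mice.

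Of all tested genes, 11.9% passed the test against WT in both HD groups together, 10.7% in untreated mice and 3.69% in treated mice. No member of the nuclear and chromatin group (9 tested), the group of ribosome, nucleolus and RNA proteins (3), the mitosis, spindle and DNA repair group (3), the secreted proteases (2) or the cilium group (2) passed the test in any comparison. Rnf4, a ubiquitin ligase that recognises SUMO, came nearest, at 85.0, 78.3 and 79.7 CPM in WT, 70.7, 69.3 and 74.0 in untreated mice and 69.2, 64.1 and 73.0 in treated mice. The HD mice lay below the WT mice without overlap, and the log2 fold change was -0.21 ± 0.06 in both HD groups (adjusted p = 0.0503), just outside the threshold that Crmp1 met. Further members were the histone methyltransferase gene Nsd2, the negative elongation factor gene Nelfa, the Max partner gene Mxd4 and the zinc finger gene Zbtb49. With Fam193a and Tada2b, an adaptor gene of histone acetylation, they ranged from -0.32 to 0.19 on the log2 scale. Nsd2 with Nelfa and Tada2b with Grpel1 overlap at their 3′ ends on opposite strands, so that within these pairs reads may not be told apart.

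Msantd1, a protein with a Myb/SANT-like domain and the nearest neighbour of Htt on the other side, was at 4.42, 4.99 and 4.72 CPM in WT, 2.74, 2.59 and 1.80 in untreated mice and 3.89, 2.93 and 1.68 in treated mice. The WT mice lay close together above all HD mice, and the log2 fold change was -0.86 ± 0.25 (adjusted p = 0.0516). The 3′ end of Htt lies inside Msantd1 on the same strand in the annotation, and Msantd1 held 871 counts over all libraries where Htt held 41098, so that its reads may not be fully told apart from those of Htt, which also was lower in HD mice. Msx1, a homeobox factor, had the largest negative value of any member, -1.54 ± 0.53 (adjusted p = 0.0869), but its WT mice ran from 2.49 to 10.97 CPM and overlapped the treated mice. The WT mouse at 10.97 CPM, replicate 2, also had the highest summed choroid plexus markers, 3731 CPM, and the part of that tissue in the Msx1 value was not tested.

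Nop14, a factor of small ribosomal subunit assembly next to Grk4, was at 19.6, 16.7 and 19.0 CPM in WT, 20.7, 24.5 and 19.5 in untreated mice and 22.5, 20.5 and 21.5 in treated mice. The untreated mice overlapped the WT mice and the treated mice did not, and the log2 fold change was 0.22 ± 0.10 in both HD groups (adjusted p = 0.166). Mfsd10, a transporter of the major facilitator family and the next gene, was at 19.2, 18.7 and 17.5 CPM in WT, 20.8, 20.6 and 24.1 in untreated mice and 21.7, 22.4 and 20.5 in treated mice, with all HD mice above all WT mice and a log2 fold change of 0.23 ± 0.09 (adjusted p = 0.106). On the other side Hgfac, a serine protease that activates hepatocyte growth factor, was barely counted, at 0.0756, 0.734 and 0.266 CPM in WT, 0.631, 0.202 and 0.510 in untreated mice and 0.337, 0.132 and 0.291 in treated mice, and the groups overlapped. Haus3, a subunit of the augmin complex of the spindle, was at 4.04, 3.38 and 5.25 CPM in WT, 6.14, 6.62 and 8.19 in untreated mice and 5.33, 7.05 and 5.01 in treated mice, with all untreated mice above all WT mice, the treated mice overlapping WT and a log2 fold change of 0.59 ± 0.19 (adjusted p = 0.0740). It lies inside Poln on the same strand, and Poln held 87 counts over all libraries. Poln, a DNA polymerase, and Tacc3, a spindle protein, had log2 fold changes of 0.35 ± 0.55 and 0.10 ± 0.15, and that of Poln was -0.09 without WT replicate 2. The values were 0.22 ± 0.15 for Slbp, which binds the stem loop of histone mRNA, and 0.31 ± 0.17 for the nucleolar protein gene Lyar, neither of which was called. Htra3, a secreted serine protease, had a log2 fold change of 0.15 ± 0.18 (adjusted p = 0.624).

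Otop1 and Cpz, a carboxypeptidase, were left out of the test for low counts. Otop1 had 3, 0 and 17 counts in the WT mice, 2, 2 and 4 in the untreated mice and 5, 5 and 0 in the treated mice. Cpz had 0, 7 and 8, then 0, 2 and 0, then 0, 0 and 0 counts. A count of 0 allows up to 3 counts at this depth, by counting error alone. Neither gene was in the test, so whether the groups differ in them is not stated here.

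Untreated mice against WT gave 7 calls among the 49 members (14.3%), against 10.7% of all genes. Dok7, Wdr1 and Acox3 rose (4.58% of all genes did) and Zfyve28, Adra2c, Nsg1 and Sorcs2 fell (6.1% of all genes), as given above. The members' median log2 fold change was -0.0018 and that of all genes 0.02. In 22 members (44.9%) the 3 untreated mice did not overlap the 3 WT mice, against 30.1% of all genes. The paper describes its differentially expressed genes by a change of 2-fold and an unadjusted P, with the limit on P at 0.01 in its methods and at 0.05 in its results. At P under 0.01 and at least 2-fold 2 members qualified, Adra2c and Slc2a9 (4.08%, against 4.86% of all genes), and at P under 0.05 Msx1 was added (6.12%, against 8.16%). Without WT replicate 1 there were 11 calls, and with the Y-linked share in the fit the calls were 3, those of Zfyve28, Adra2c and Sorcs2. Over all genes these fits called 2584 and 457, in place of 2080.

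Treated mice against WT gave 4 calls (8.16%), against 3.69% of all genes. Grk4 rose, as did 0.904% of all genes, and Zfyve28, Adra2c and Sorcs2 fell, as did 2.78%. The median was -0.02 for the members and 0.00 for all genes, and 21 members (42.9%) did not overlap between the groups, against 28.6% of all genes. With a 2-fold change, Slc2a9 was the 1 member under either limit on P (2.04%, against 2.78% of all genes at 0.01 and 5.22% at 0.05). In both HD groups together 2 members passed at 0.01 (4.08%, against 4.09%) and 3 at 0.05 (6.12%, against 6.64%). Without any 1 of the treated mice 1 call was left, beside 172, 136 and 177 over all genes. Without untreated replicate 3 there were 7, beside 1380. With the Y-linked share in the fit there were 0, with 5 members at an unadjusted P under 0.05 by the same test of edgeR. That fit called 5 of all 19463 genes, in place of 718, and had 1868 at an unadjusted P under 0.05. The comparisons with WT use the same WT mice. A call in one HD group and not in the other is no test of a difference between the groups.

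That difference was tested directly by comparing treated with untreated mice, which share the genotype and CasRx. No member passed the quasi-likelihood test of edgeR, and neither did any of the 19463 genes (0.0%). At an unadjusted P under 0.05 there were 4 members (8.16%), beside 5.50% of all genes. DESeq2 and the exact test of edgeR also called 0 members, where they called 48 and 18 genes in all, and had 4 and 3 members at an unadjusted P under 0.05. With a 2-fold change 0 members qualified under either limit on P, against 0.17% of all genes at 0.01 and 0.771% at 0.05. The smallest adjusted p of a member was 0.886. In 14 members (28.6%) the treated mice did not overlap the untreated mice, against 15.8% of all genes.

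The members with the smallest P in that comparison were Nat8l, Adra2c, Evc2 and Jakmip1. Nat8l, which makes N-acetylaspartate in neurons, was at 398, 347 and 301 CPM in untreated and 286, 269 and 265 in treated mice, beside 321, 271 and 234 in WT mice. The treated mice were all lower than the untreated mice and lay within the WT range, with a log2 difference of -0.35 ± 0.13 (edgeR adjusted p = 0.886). The difference in Adra2c was 0.42 ± 0.16 (edgeR adjusted p = 0.886), with treated mice the nearer to WT. Evc2, a ciliary membrane protein of Hedgehog signalling, was at 10.2, 8.81 and 7.05 CPM in WT, 13.4, 10.1 and 18.6 in untreated mice and 8.95, 9.82 and 9.98 in treated mice, with all untreated mice above all treated mice and a log2 difference of -0.55 ± 0.22 (edgeR adjusted p = 0.886), or -0.29 without untreated replicate 3. Jakmip1 differed by 0.25 ± 0.11 (edgeR adjusted p = 0.889), at 24.1, 26.1 and 22.9 CPM in untreated and 27.9, 30.05 and 29.0 in treated mice, all of which were above the untreated mice.

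The called members lay on both sides of Htt in the gene order. On the Grk4 side 1 of 20 tested members rose and 2 fell in both HD groups, and on the Msantd1 side 4 of 29 rose and 4 fell. Of all tested genes 4.52% rose and 7.34% fell in that comparison. Counting all tested chromosome 5 genes, members or not, 5 of the 20 genes within 10 genes of Htt were called (25%), 5 of the 30 genes 11 to 25 away (16.7%) and 9 of the 50 genes 26 to 50 away (18.0%). Farther out 8 of 100 genes at 51 to 100 genes were called (8.0%), and 131 of 1067 in the rest of the chromosome (12.3%). On the other chromosomes it was 2145 of 18138 (11.8%). The median log2 fold change of the nearest 20 genes was -0.09. The 19 called genes within 50 genes of Htt became 9 without WT replicate 2 and 10 without treated replicate 2 or treated replicate 3. They became 12 without untreated replicate 2 and 5 with the Y-linked share in the fit. Over all genes 2309 calls became 833, 1085, 1218, 1572 and 195 in these fits. In untreated mice alone the shares, from the nearest genes out to the other chromosomes, were 15%, 16.7%, 10%, 9%, 10.6% and 10.7%. In treated mice alone they were 10%, 13.3%, 2%, 4%, 3.1% and 3.7%. The genes 26 to 50 away were thus not above the other chromosomes in either HD group alone. The shares by distance are a description, since neighbouring genes were not independent and no test of distance was run.

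**Figure D3:**
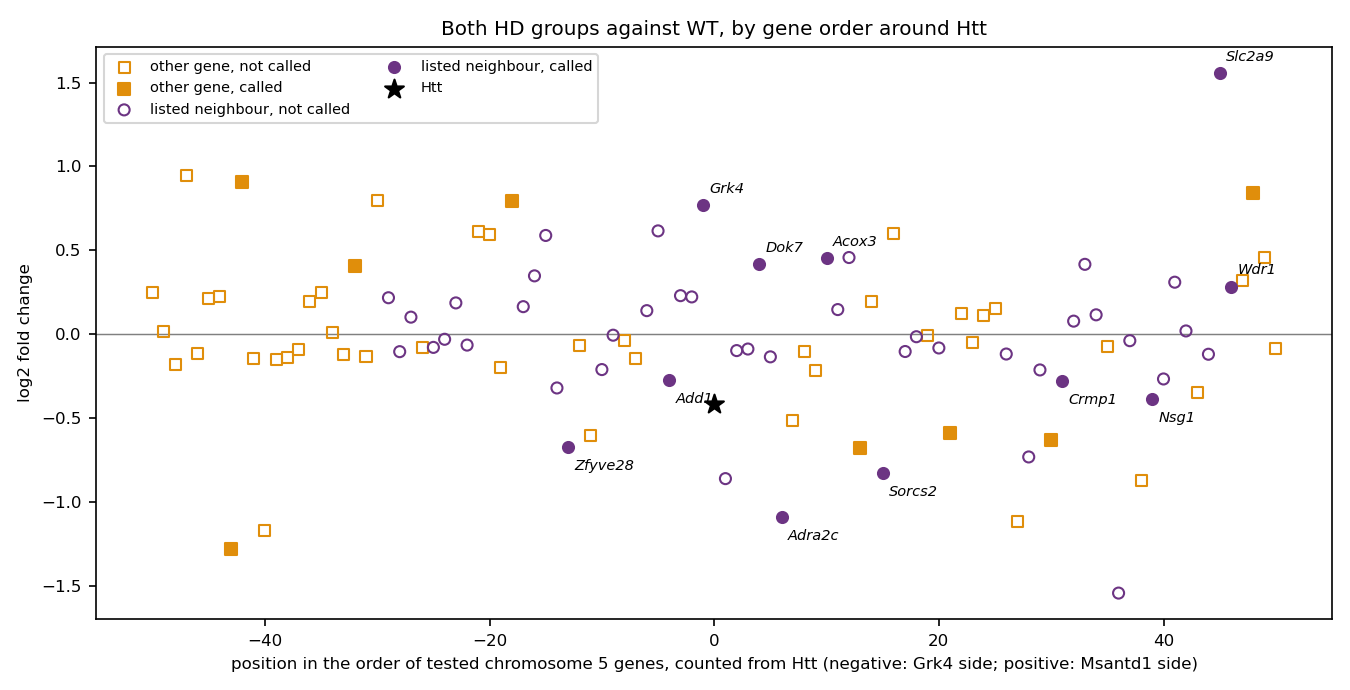
Log2 fold change of both HD groups against WT (y axis) for tested chromosome 5 genes by their place in the gene order counted from Htt (x axis; negative on the Grk4 side). Circles are the members, squares are other genes, filled symbols passed an adjusted p under 0.05, and the star is Htt. Called members lie on both sides of Htt and of 0, from -1.09 for Adra2c to 1.56 for Slc2a9.

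**Figure D4:**
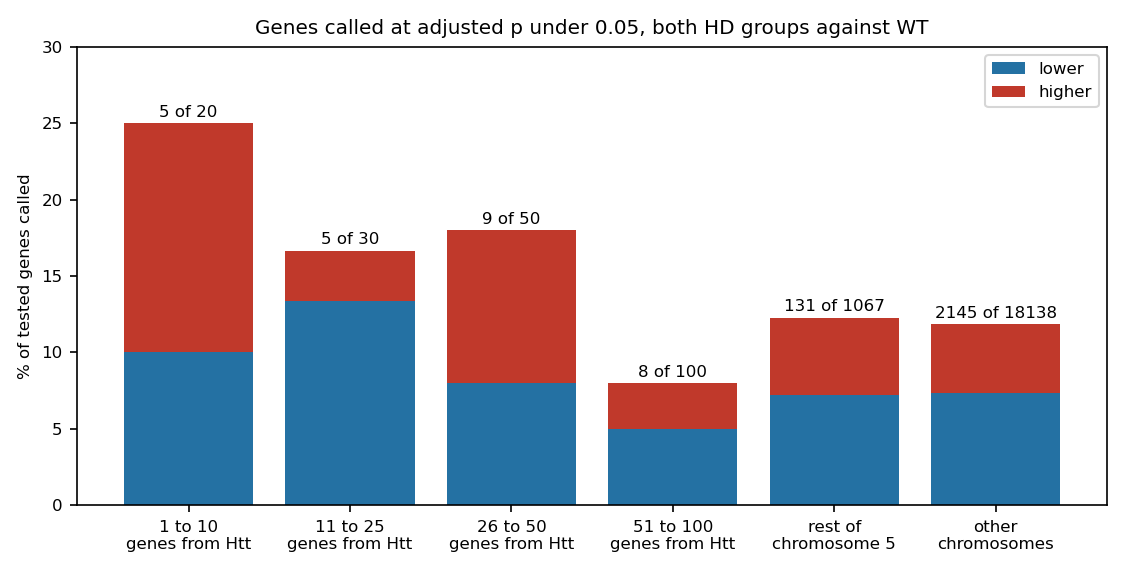
Share of tested genes called in both HD groups against WT (y axis, in %, split into lower and higher) by distance from Htt in the gene order, in the rest of chromosome 5 and on the other chromosomes (x axis). The bars stand at 25%, 16.7%, 18.0%, 8.0%, 12.3% and 11.8%, and the nearest bar rests on 5 of 20 genes.

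Within the stretch, 26 tested genes were not on the list, 12 of them protein-coding. Of the 26, 4 (15.4%) were called in both HD groups. Of the 12 protein-coding genes 3 were called (25%), beside 22.4% of the members, all of which are protein-coding. The same count, 3 of 12, was called in untreated and in treated mice alone, beside 14.3% and 8.16% of the members. The genes off the list with the smallest P within 50 genes of Htt included D5Ertd579e and Gm1043. D5Ertd579e was at 195, 204 and 208 CPM in WT, 126, 132 and 128 in untreated mice and 133, 140.1 and 151 in treated mice and fell by 0.59 on the log2 scale in both HD groups (adjusted p = 0.000406). Gm1043, which encloses the 3′ end of Jakmip1, fell by 0.63 (adjusted p = 0.000531). In both genes the 6 HD mice lay below the 3 WT mice.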

How the data were processed

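Striatal RNA of 9 mice was measured with 3′ mRNA libraries made from an oligo-dT primer. The authors deposited raw counts per Ensembl gene, whole numbers without normalization. The paper's methods name STAR as the aligner and quantifier, whereas the submitters' processing notes name Trimmomatic 0.39, FastQC 0.11.9, HISAT2 2.2.1 and featureCounts 2.0.1. The mouse genome build, the use of strand in counting and any removal of duplicate molecules are not given in the sources used here. The labels list 3 replicates a group and the paper gives n = 3 for the mouse sequencing. Each library was therefore taken to come from 1 mouse, which the labels do not state. The members and gene lists were chosen with earlier results of these data known.

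Symbols, gene types and gene order came from GENCODE M21, which held 94.1% of the 55357 gene IDs and 99.8% of the counts. Jakmip1 has 2 IDs there, and the enclosing gene was used. Apart from those of the promoters shown, no coordinates are given, because the build of the counts is unknown. Promoters came from RefSeq on GRCm38.p6. Total counts were 27184356 to 32102121 per library.

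The analysis used edgeR 4.0.16 in R 4.3.3. Genes were kept by filterByExpr, scaled by TMM and fitted over all 9 libraries with glmQLFit, with 6 residual degrees of freedom. Contrasts were tested with glmQLFTest, and p-values were Benjamini-Hochberg adjusted over 19463 genes. A call is an adjusted p under 0.05. The fit was tested on simulated data. SE is the log2 fold change over the square root of F. The log2 CPM values of the heat map used a prior count of 2. Alternatives were total-count scaling, DESeq2 1.42.0, the edgeR exact test, no filter, a minimum of 10 counts in each library, fits restricted to the groups compared, a replicate block, the share of Y-linked counts (Ddx3y, Eif2s3y, Kdm5d, Uty) as covariate, other call rules and leaving out each mouse. Values in every mouse are given for members called against WT, the 3 tested members nearest Htt on each side and the 3 members of smallest P in each comparison. A few further members were named for their role group or chosen after their values were seen (Lrpap1, Sh3bp2, Wfs1, Msx1, Jakmip1). Python 3.11.15 and matplotlib 3.10.9 made the figures.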

Additional observations from a re-analysis of the deposited data

How the results depend on the processing

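For untreated mice against WT the count of 7 called members became 16 with DESeq2, 13 with the edgeR exact test and 3 with only the compared groups. With the Y-linked share as covariate it was 3. Over all genes the 2080 calls became 3473, 2844, 726 and 457 under these fits. The member count was 3 at P under 0.05 and 2-fold, 2 at P under 0.01 and 2-fold and 1 at adjusted p under 0.05 and 2-fold. The first 2 of these rules took 8.16% and 4.86% of all genes. The share of all genes under the last rule was not counted in any comparison. When 1 mouse was left out it ran from 5 to 11, and the count of all genes from 912 to 2584. For treated mice against WT the 4 calls became 11 with DESeq2, 7 with the exact test and 0 with the covariate (5 at an unadjusted P under 0.05). Over all genes 718 calls became 1946, 1464 and 5 (1868 at an unadjusted P under 0.05). The 2-fold rules gave 1, 1 and 0 members, beside 5.22% and 2.78% of all genes under the first 2 rules. Without 1 mouse there were 1 to 7, beside 136 to 1380 over all genes. Of the members, 1 was left without any 1 treated replicate and 7 without untreated replicate 3. For both HD groups the 11 calls became 2 with the covariate and 3, 2 and 2 under the 2-fold rules. The first 2 of those rules took 6.64% and 4.09% of all genes. Without 1 mouse there were 5 to 12, with 5 left without WT replicate 2, treated replicate 2 or treated replicate 3. Over all genes 2309 calls became 195 with the covariate and 833 to 2549 without 1 mouse. Without WT replicate 1 the untreated count was 11, and without untreated replicate 2 or treated replicate 1 the count in both HD groups was 7. Treated against untreated mice gave 0 called members under every alternative run. With the covariate Htt was at -0.38, -0.48 and -0.43 (adjusted p = 0.0591, 0.177 and 0.0695) in untreated, treated and both HD groups against WT. Without 1 mouse it ran from -0.39 to -0.35, -0.49 to -0.43 and -0.43 to -0.40, and from -0.12 to -0.07 between the HD groups. The covariate fit and the fits without 1 mouse have fewer residual degrees of freedom, and the cause of these changes was otherwise not tested.

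Mice of different groups with the same replicate number were different animals, and the correlation of their deviations from the group means ran from -0.08 to 0.24, with 2 of 9 pairs over 0.1, so the numbers were not taken to pair them. With the replicate block 8 members were called in untreated, 4 in treated and 12 in both HD groups against WT, and 0 between the HD groups. Over all genes 2018, 778, 2220 and 0 were called. The calls of Wdr1 in untreated mice (adjusted p = 0.0580) and Slc2a9 in both HD groups (adjusted p = 0.0668) were lost.

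No call of a member against WT, and no value of Htt, changed direction under the alternatives run. Values of uncalled members did: with the covariate 8 of 49 members had the opposite sign in both HD groups together, 4 in untreated and 10 in treated mice, among them Sh3tc1 (0.46 to -0.02 in both HD groups, 0.33 to -0.23 in treated mice) and Sh3bp2 (0.36 to -0.28 in treated mice). Of the values of single named members under the alternatives, 322 stayed on their side of the threshold and 92 no longer passed it. Total-count scaling ended the calls of Add1 and Crmp1 in both HD groups, leaving out the filter on low counts those of Crmp1 and Slc2a9 there, of Wdr1 in untreated and of Grk4 in treated mice, and fitting only the compared groups those of Acox3, Dok7, Nsg1 and Wdr1 in untreated and of Grk4 in treated mice. The calls of Zfyve28, Adra2c and Sorcs2 in untreated mice, and of Zfyve28 and Sorcs2 in both HD groups, held under all fits listed here that keep the rule of adjusted p under 0.05. With 3 mice a group, differences as small as those of Crmp1 and Wdr1 sit near the limit of what was called, and genes with few counts, such as Slc2a9, Poln and Hgfac, have wide errors.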
